A study of Mus musculus with 4 samples.

Results

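Apelin, the peptide ligand encoded by *Apln*, and the apelin receptor, encoded by *Aplnr*, were followed in cells of the mouse brain vasculature. Both were found by their symbols as 2 of the 32286 gene rows of each single-cell table, and each symbol stood on 1 row. *Apln* is made as a preproprotein that proteases cut into short secreted peptides, and the receptor is a G protein-coupled receptor of endothelial cells (ECs) that signals mainly through inhibitory G proteins. In growing vessels *Apln* is known as a gene of tip cells, the cells that lead a sprout, whereas *Aplnr* is known from veins and from the cells behind the tip. The pair acts on sprouting, vessel calibre and nitric oxide release, and *Apln* is known to rise under hypoxia.

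The samples were vascular fragments pulled with PECAM1 antibody beads from the cerebra of 4 mice of 3 months, with 1 library per mouse. The study describes 2 independent experiments, and the labels used here do not say which mice belonged to each. Replicate number and sex went together, so they cannot be told apart. The genotypes compared were 2 *Angpt2*+/+ mice (WT1, female, and WT2, male) and 2 *Angpt2*-/- mice (KO1, female, and KO2, male). The knockout was constitutive: the floxed allele had been recombined by *Pgk*-Cre, which acts in all tissues, so every cell type lacked exon 4 of *Angpt2*, which encodes the Tie2 ligand angiopoietin-2. The line had been backcrossed to C57BL6/J, and the controls were WT littermates. The comparison asked in which cells the ligand and its receptor differed between *Angpt2*-KO and -WT vessels.

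*Apln* (ENSMUSG00000037010) lies on chromosome X from 48025146 to 48034853 on the minus strand of GRCm38, and *Aplnr* (ENSMUSG00000044338) on chromosome 2 from 85136225 to 85139923 on the plus strand. In the GENCODE M21 annotation no other gene overlapped either of them. *Apln* has 1 transcript of 3149 bases in 3 exons, of which 231 bases code for 77 amino acids. The longer *Aplnr* transcript has 3699 bases in 1 exon, of which 1131 code for 377 amino acids. The bases that make the active ligand are shown, because the receptor binds the C-terminal end of the *Apln* product. They are the last 36 codons before the stop codon, in exon 2, chrX:48028302-48028409 on the minus strand of GRCm38, with the final 13 codons, those of the peptide known as apelin-13, in capitals.
Apln: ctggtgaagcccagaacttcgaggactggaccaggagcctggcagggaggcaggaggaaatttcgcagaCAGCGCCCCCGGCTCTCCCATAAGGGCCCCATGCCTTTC

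Of 19809 barcodes, 17999 cells had over 500 genes and under 10% mitochondrial UMIs (unique molecular identifiers, which count RNA molecules). Libraries held 31753395 to 42903731 UMIs, and medians of 1866 to 2778 genes per cell. Between libraries 33 barcodes were shared. *Angpt2* itself was at 10.7 and 9.92 UMIs per 1000000 UMIs (CPM) in ECs of WT1 and WT2, against 64.7 and 41.0 in KO1 and KO2. These reads come from the 3′ end of the transcript, outside the deleted exon, so they did not check the genotype labels. The 14145 ECs carried a median of 48 to 86 UMIs over 7 endothelial markers, whereas microglia carried 0 to 1. The 809 fenestrated ECs formed a group of their own. They are not among these 14145, so levels and shares given for ECs or all ECs leave them out. EC clusters were made without *Apln* and *Aplnr* and were named arterial (2241 cells), capillary (4623) and venous (717) from markers. The other 2 EC clusters of this kind stayed unnamed. The remaining one, called the angiogenic cluster and closest to capillary ECs by its markers, was the one with the highest score for the genes of the study's KO-dominated cluster, a list the study had chosen on these samples and from which *Apln* and *Aplnr* are absent. It held 1438 cells, namely 20 of WT1, 15 of WT2, 753 of KO1 and 650 of KO2.

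*Apln* rose sharply in *Angpt2*-KO ECs, and nearly all of the rise sat in the angiogenic cluster. Over all ECs, *Apln* was at 3.22 CPM in WT1 and 4.72 in WT2, against 407 in KO1 and 118 in KO2. Both KO mice thus stood far above both WT mice, and KO1 stood above KO2. The mean was 3.97 ± 1.06 CPM in WT and 262 ± 205 in KO (SD, n = 2 mice each). The difference was 6.01 on the log2 scale (SE 0.596, adjusted p = 0.00282, edgeR's quasi-likelihood test on UMIs summed per mouse, with Benjamini-Hochberg adjustment). Of the pair, 1 gene (*Apln*) was called in ECs, where 5.66% of the 13518 genes tested were called. The log2 difference was 6.94 between the female mice and 4.65 between the male mice, with 1 mouse of each genotype per sex. Without WT1 the difference was 5.81 with an adjusted p of 0.0924, whereas the 10 alternatives that kept all mice gave adjusted p-values from 1.53e-17 to 0.00844.

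**Figure D1:**
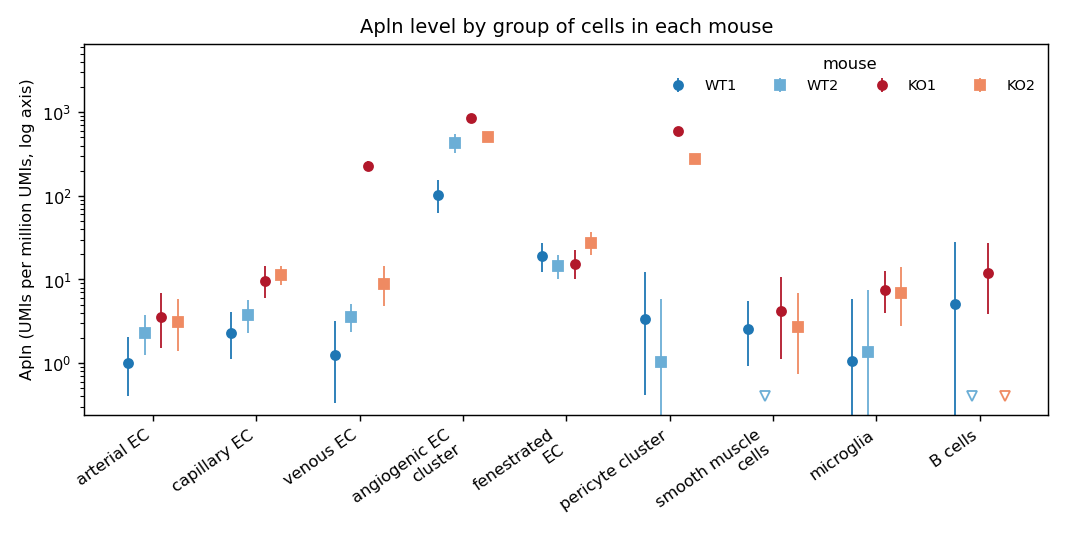
*Apln* level (UMIs per 1000000 UMIs, log axis) in each group of cells, with 1 point per mouse, exact 95% Poisson bars that cover counting error only (cut at the lower edge of the plot), and open triangles for sums of 0 UMIs. In the angiogenic cluster the points lay between 102 and 854 CPM, and in the pericyte cluster those of KO1 and KO2 were at 602 and 273 against 3.38 and 1.04 in WT.

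The angiogenic cluster held 95.5% of the *Apln* UMIs of all ECs in KO1 and 93.2% in KO2, while it made up 36.1% and 15.7% of their ECs. In WT1 and WT2 it made up 0.621% and 0.320% of ECs and held 24.7% and 38.8% of the *Apln* UMIs. Within the cluster, *Apln* was at 102 (21 UMIs) and 427 (62 UMIs) CPM in WT1 and WT2 against 854 (8721 UMIs) and 510 (2405 UMIs) in KO1 and KO2. The KO values were the higher ones, but the WT values rest on 20 and 15 cells, and this difference was not tested. Without the cell with the most *Apln* UMIs the WT levels were 60.4 and 214 CPM. The share of cluster cells with an *Apln* UMI was 30.0% (exact 95% interval 11.9 to 54.3) and 6 of 15 cells (16.3 to 67.7) in WT1 and WT2 against 37.8% (34.4 to 41.4) and 25.1% (21.8 to 28.6) in KO1 and KO2. In these shares the genotypes overlapped, and the wide WT intervals covered both KO shares.

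A few cells held most of the ligand's transcript. In KO1, 82 ECs with 20 or more *Apln* UMIs (3.93% of its ECs) held 88.4% of the *Apln* UMIs, and in KO2, 28 such ECs (0.676%) held 71.8%. WT1 and WT2 had 1 such EC each. The highest count in a single EC was 20 and 34 in WT1 and WT2 against 531 and 281 in KO1 and KO2. Of 140 cells of any type with 20 or more *Apln* UMIs, 109 lay in the angiogenic cluster and 28 in the pericyte cluster. These cells were deep, with a median of 28433 UMIs in KO1 and 19145 in KO2, against 7504.5 and 3885 over all ECs of the same mice. In the angiogenic cluster the markers of the 2 mural cell types differed in opposite directions in the cells richest in *Apln*. Cells with 20 or more *Apln* UMIs held 13.6 (KO1) and 11.6 CPM (KO2) over 8 pericyte markers, with 2 and 5 of the markers at 0, against 49.2 and 46.6 CPM in the more numerous cells without *Apln*, where no marker was at 0. The 8 smooth muscle markers summed to 42.9 and 73.2 CPM in the same *Apln*-rich cells, against 20.3 and 41.4 in cells without *Apln*, and their part in the *Apln* values was not tested. In cells with 1 to 4 and 5 to 19 *Apln* UMIs, pericyte markers were at 53.3 and 45.1 CPM in KO1 and 48.4 and 41.5 in KO2. Smooth muscle markers were at 28.2 and 23.6 CPM in KO1 and 28.8 and 33.7 in KO2. Neither list thus changed steadily with *Apln*. *Aplnr* had no EC with 20 UMIs in any mouse, and its highest counts per EC ran from 8 in WT2 to 13 in WT1. Over cells of all types, fenestrated ECs included, its highest counts were 18, 8, 14 and 18 in WT1, WT2, KO1 and KO2.

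**Figure D2:**
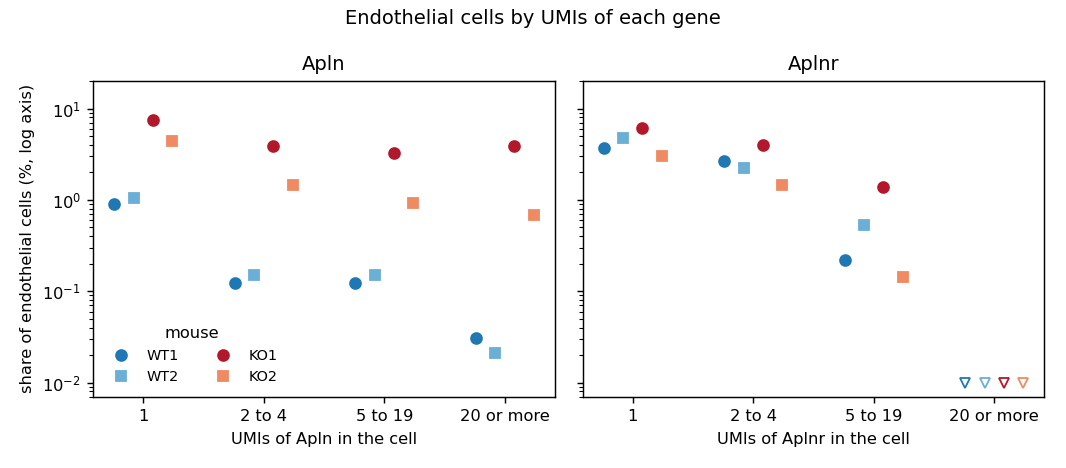
Share of ECs (%, log axis) by how many UMIs of *Apln* (left) or *Aplnr* (right) the cell held, with 1 point per mouse and open triangles for no cell. Cells with 20 or more *Apln* UMIs were 82 in KO1, 28 in KO2 and 1 in each WT mouse, and no EC held 20 UMIs of *Aplnr*.

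The share of ECs with at least 1 *Apln* UMI was 1.18% (exact 95% interval 0.836 to 1.62) and 1.36% (1.05 to 1.74) in WT1 and WT2 against 18.7% (17.0 to 20.4) and 7.43% (6.65 to 8.27) in KO1 and KO2. The difference between the genotype means was 11.8 percentage points (two-sided exact permutation test over mice, p = 0.33, the smallest that 2 against 2 mice allow). With each cell thinned to 2000 UMIs, which left out 113 to 607 shallower ECs per mouse, the shares were 0.362%, 0.389%, 9.53% and 4.38% in the same order. Both KO mice stayed above both WT mice at matched depth. Outside the angiogenic cluster the unthinned shares were 0.999%, 1.24%, 7.88% and 4.15%, and the difference was 4.89 points.

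*Apln* was also found at a low level in cell types taken as background, and more so in KO. Microglia, the brain's resident macrophages, and B cells should not make *Apln*, yet microglia held 1 and 1 *Apln* UMI in WT1 and WT2 against 13 and 7 in KO1 and KO2, which gave 1.05, 1.34, 7.44 and 6.90 CPM. Of microglia, 0.481%, 0.617%, 4.15% (exact 95% interval 2.09 to 7.31) and 1.85% (0.604 to 4.27) had an *Apln* UMI, at median depths of 4521, 4040.5, 6265 and 3498.5 UMIs. Microglia and B cells together gave 3 of 514 WT cells (0.584%, interval 0.121 to 1.70) and 21 of 665 KO cells (3.16%, interval 1.97 to 4.79). Of B cells, 1 of 53 in WT1 (1.89%) and 5 of 90 in KO1 (5.56%, interval 1.83 to 12.5) had an *Apln* UMI, which gave 5.04 and 11.8 CPM. B cells of WT2 and KO2 had none, 0 of 91 and 0 of 40, which allows shares of up to 3.30% and 7.50% at a limit of 3 cells. The microglia with *Apln* also held endothelial transcripts more often: 5 of 11 in KO1 (45.5%) and 4 of 5 in KO2 (80.0%) had 2 or more endothelial marker UMIs, against 20.9% and 33.2% of microglia without *Apln*. Free RNA and mixed cells were not told apart in this background. *Apln* in microglia was below the filter on low counts and was not tested. *Apln* shares at or below those of microglia or B cells of the same mouse were read as background.

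Outside the angiogenic cluster *Apln* was still called higher in KO. The level was 2.45 and 2.91 CPM in WT1 and WT2 against 34.0 and 10.2 in KO1 and KO2, and both KO mice lay above both WT mice. The log2 difference was 2.97 (SE 0.476, adjusted p = 0.0210, edgeR), where 1.75% of genes were called. The KO2 value stood close to the 6.90 CPM of its microglia. In KO1, 2 cells with 20 or more UMIs held 247 of the 415 *Apln* UMIs. Without the cell of each mouse with the most *Apln* UMIs the difference was 2.61, and without WT2 it was 3.08 with an adjusted p of 0.129. The alternatives that kept all mice gave adjusted p-values from 1.89e-59 to 0.0298.

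In capillary ECs, where most of the brain's barrier surface lies, *Apln* was at 2.27 and 3.73 CPM in WT1 and WT2 against 9.46 and 11.2 in KO1 and KO2. The groups did not overlap, and the log2 difference was 1.80 (SE 0.329, adjusted p = 0.00475, edgeR), where 1.39% of genes were called. Capillary levels were 2.17, 2.77, 1.27 and 1.63 times those of microglia in WT1, WT2, KO1 and KO2, so the ratio to this background was lower in KO. The log2 difference in microglia was 2.76 between the female and 2.32 between the male mice, against 1.97 and 1.67 in capillary ECs. The microglial values rest on few UMIs, and these differences were not compared by a test. B cells of KO1, at 11.8 CPM over 5 UMIs, stood above its capillary ECs, and those of KO2 were at 0. The share of capillary ECs with a UMI was 4.51% in KO1 (exact 95% interval 2.78 to 6.89) and 3.56% in KO2 (2.69 to 4.61), at median depths of 4912 and 3350 UMIs. Those intervals overlap with the ones of microglia given above, but such an overlap is not a test of a difference. With cells thinned to matched depth as for all ECs above, *Apln* was found in 4 of 400 capillary ECs of KO1 and 30 of 1333 of KO2. Thinned microglia of KO1 and KO2 had it in 1 of 238 and 1 of 214 cells, and B cells in 2 of 86 and 0 of 21. Whether capillary shares differed from this background was not tested. The call was lost with DESeq2 (adjusted p = 0.160), without KO2, and without cells that held markers of other cell types (adjusted p = 0.283, edgeR). That last alternative kept only 24.1% of all ECs. B cell markers alone reached 2 UMIs in 38.4 to 53.0% of each mouse's capillary ECs without *Apln*. Loss of mixed cells and loss of cells in general thus cannot be told apart there. The alternatives with all mice started at an adjusted p of 4.60e-06. The difference was 3.35 without the cell of each mouse with the most *Apln* UMIs, cells which held 6 and 16 UMIs in WT1 and WT2.

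In arterial ECs *Apln* was at 1.00 and 2.27 CPM in WT1 and WT2 against 3.54 and 3.08 in KO1 and KO2, in each KO mouse below the level of microglia. The log2 difference of 0.98 did not pass the test (SE 0.562, adjusted p = 0.650, edgeR), and 0.633% of genes were called there. In the 2 unnamed EC clusters, one led by *Tmsb10* and *Car4* and one of low depth led by *Lars2*, KO levels were 24.3 and 12.7 CPM against 4.42 and 2.71 in WT, and 20.4 and 12.6 against 0 and 0.722. The first held 42, 35, 139 and 67 *Apln* UMIs in WT1, WT2, KO1 and KO2. It stood 4.22, 2.02, 3.27 and 1.84 times above microglia of the same mouse. The second held 0, 1, 19 and 23 *Apln* UMIs, and neither difference was tested.

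In venous ECs the call for *Apln* rested on 1 cell. The level was 1.23 and 3.54 CPM in WT1 and WT2 against 230 and 8.73 in KO1 and KO2, and a single venous EC of KO1 held 218 of that mouse's 227 *Apln* UMIs. The log2 difference was 5.20 (SE 0.772, adjusted p = 0.00113, edgeR), where 0.832% of genes were called. Without the cell of each mouse with the most *Apln* UMIs it was 1.73 (adjusted p = 0.262), and without KO1 it was 1.58 (adjusted p = 0.456), whereas the alternatives with all mice and all cells gave adjusted p-values from 1.78e-69 to 0.224. The genotype effect in venous minus capillary ECs, tested in 1 model with the mouse as a term, was 2.88 (SE 0.922, adjusted p = 0.212, edgeR), and 0.171% of genes were called there. That value was 0.02 without the top venous cells and -0.25 without KO1.

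Among arterial, capillary and venous ECs, *Aplnr* was highest in veins in every mouse, and no genotype difference of it passed a test. In venous ECs it was at 49.0 and 56.7 CPM in WT1 and WT2 against 62.8 and 75.5 in KO1 and KO2. The KO values were the higher ones, and the log2 difference of 0.30 did not pass the test (SE 0.201, adjusted p = 0.584, edgeR). Venous ECs stood 5.65, 8.18, 6.08 and 9.61 times above capillary ECs of the same mouse, and 16.3, 14.6, 20.3 and 24.5 times above arterial ECs. The share of venous ECs with an *Aplnr* UMI was 47.1% (exact 95% interval 39.0 to 55.3) and 54.8% (49.5 to 60.0) in WT1 and WT2 against 58.1% (42.1 to 73.0) and 35.3% (27.8 to 43.3) in KO1 and KO2. The low share in KO2 went with its low depth, a median of 4668.5 UMIs per venous EC against 16929 to 18916 in the other mice. Thinned to 2000 UMIs the shares were 8.28%, 11.9%, 19.5% and 16.5%. Venous *Aplnr* stood well above the background, since microglia had 0.481 to 1.11% of cells with a UMI and B cells 1 UMI in all.

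**Figure D3:**
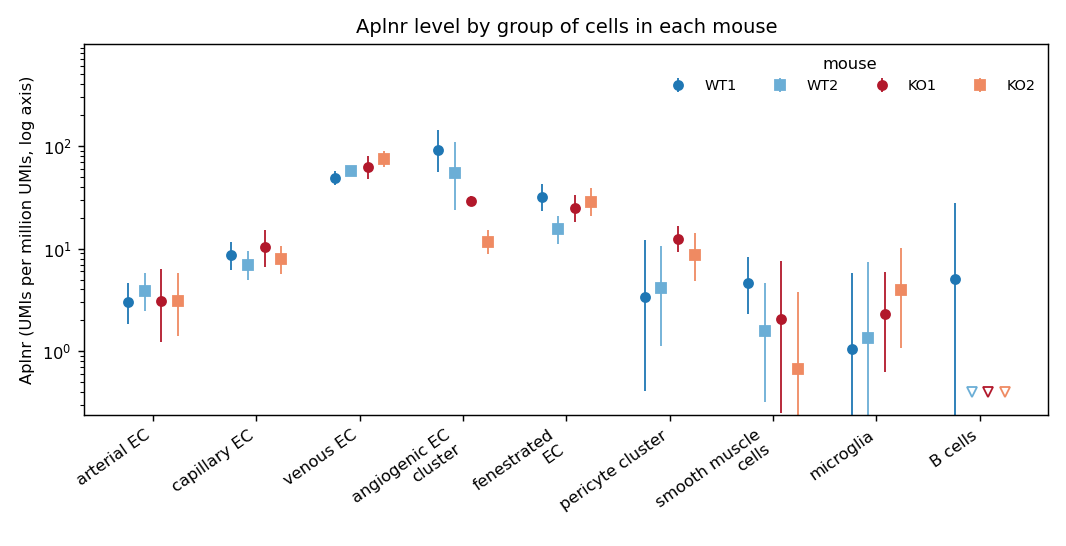
*Aplnr* level (UMIs per 1000000 UMIs, log axis) in each group of cells, with 1 point per mouse, exact 95% Poisson bars that cover counting error only (cut at the lower edge of the plot), and open triangles for sums of 0 UMIs. Venous ECs lay between 49.0 and 75.5 CPM in all 4 mice, and arterial ECs between 3.00 and 3.89.

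Over all ECs *Aplnr* was at 14.6 and 18.7 CPM in WT1 and WT2 against 22.9 and 14.1 in KO1 and KO2, so the genotypes overlapped. The log2 difference was 0.13 (SE 0.222, adjusted p = 0.804, edgeR), and outside the angiogenic cluster it was -0.04 (SE 0.161, adjusted p = 0.942). Capillary ECs were at 8.67, 6.92, 10.3 and 7.85 CPM (log2 difference 0.17, adjusted p = 0.945), and arterial ECs at 3.00, 3.89, 3.10 and 3.08 CPM (log2 difference -0.19, adjusted p = 0.937, both edgeR). The genotype effect in venous minus capillary ECs was 0.17 (SE 0.30, adjusted p = 0.864). The share of ECs with an *Aplnr* UMI was 6.58% and 7.59% in WT1 and WT2 against 11.5% and 4.61% in KO1 and KO2, a difference of 0.974 points (two-sided exact permutation test, p = 1).

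The receptor was present in the angiogenic cluster too, in WT1 above the level of venous ECs, at 91.9 (19 UMIs) and 55.2 (8 UMIs) CPM in WT1 and WT2 against 29.0 (296 UMIs) and 11.7 (55 UMIs) in KO1 and KO2. Here the KO values were the lower ones, over 20 and 15 WT cells, and the difference was not tested. The cluster held 57.7% of the *Aplnr* UMIs of ECs in KO1 and 17.8% in KO2, whereas venous ECs held 12.1% and 39.2%. In WT1 and WT2 venous ECs held 41.4% and 68.1% of them.

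Groups of over 200 cells were put in order of their mean levels over the 4 mice. *Apln* came first in the angiogenic cluster (473 ± 309 CPM, SD, n = 4), then in the pericyte cluster (220 ± 285). Arterial ECs (2.47 ± 1.11) and smooth muscle cells (2.34 ± 1.73) came last. The second place of the pericyte cluster came from the KO mice, with a mean of 438 CPM against 2.21 in WT, where fenestrated ECs at 16.6 CPM followed the angiogenic cluster. For *Aplnr* the order was led by venous ECs (61.0 ± 11.2), then the angiogenic cluster (46.9 ± 34.9) and fenestrated ECs (25.2 ± 7.15), the leaky ECs of brain sites without a barrier. It ended with microglia (2.16 ± 1.30) and B cells (1.26 ± 2.52). Among groups of over 200 cells, the ranges of the 4 mice overlapped between every 2 neighbours in both orders. In fenestrated ECs *Apln* was at 18.9 and 14.3 CPM in WT1 and WT2 against 15.4 and 27.5 in KO1 and KO2, and *Aplnr* at 31.9, 15.4, 24.8 and 28.8, so for both genes the genotypes overlapped there.

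Ligand and receptor were found in the same cells of the angiogenic cluster more often than the product of their shares gives, as in several other groups of cells. In the cluster, 81 cells held both, against 54.1 from the product of both shares within each mouse, and after thinning to 2000 UMIs 15 cells held both against 9.38. In KO1, 23.2% of the cluster's cells with *Apln* had *Aplnr*, against 10.0% of those without, and in KO2 the shares were 6.75% and 4.52%. Thinned, these were 7.36% against 3.61% in KO1 and 2.02% against 1.12% in KO2. In venous ECs 28 cells held both, against 22.0 from the product, and thinned 1 cell against 0.883. In fenestrated ECs 20 cells held both, against 4.95 from the product, and thinned 4 against 0.366. In the pericyte cluster the counts were 18 against 6.52, and thinned 1 against 0.982. The counts are sparse and are given as a description. *Aplnr* in the cluster was at 16.9 CPM in KO1 cells without *Apln* and 31.0 in those with 20 or more UMIs, and in KO2 at 10.8 and 11.6.

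Cells rich in *Apln* were rich in a part of the tip cell genes. The study had already listed *Apln*, *Esm1*, *Mcam* and *Lamb1* among the raised genes of a tip cell subcluster of these samples. It had named *Col4a1* and *Col4a2* as further tip cell markers there. The rise of these genes with *Apln* is therefore not independent of that result. Of the 14 listed tip cell genes, *Esm1*, which encodes a secreted proteoglycan, was at 80.3 CPM in KO1 cells of the angiogenic cluster without *Apln* and at 1634 in those with 20 or more *Apln* UMIs, and in KO2 at 114 and 1826. The vasodilator peptide gene *Adm* went from 29.9 to 614 CPM in KO1 and from 34.8 to 718 in KO2. The chemokine receptor gene *Cxcr4* went from 6.63 to 230 and from 8.21 to 372 CPM, and the adhesion molecule gene *Mcam* from 7.63 to 293 and from 8.54 to 368. The laminin gene *Lamb1* went from 19.5 to 509 and from 10.2 to 597 CPM, and *Fscn1*, whose product bundles actin in filopodia, from 31.9 to 485 and from 23.3 to 495. These 6 genes differed by at least 15.2 times in both KO mice.

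Other tip cell genes differed less between the same cells. The basement membrane collagen genes *Col4a1* and *Col4a2* were 4.19 to 4.80 times higher in cells with 20 or more *Apln* UMIs, and *Nid2* 4.34 and 4.50 times. *Dll4*, the Notch ligand of tip cells, was 1.56 and 1.75 times higher, *Pdgfb*, which recruits pericytes, 1.65 and 1.51 times, and the 3′ tags of *Angpt2* 1.99 and 1.64 times. *Plaur*, the urokinase receptor gene, was 1.64 times as high in KO1 and 0.572 times in KO2. *Kcne3* was found in 10.0% and 7.14% of the cells with 20 or more *Apln* UMIs and in 0.641% and 0% of those without, and no fold is given for it. Because *Apln*-rich cells were deeper, shares were also thinned to 2000 UMIs: *Esm1* was then found in 10.3% of KO1 cells without *Apln* and 67.5% of those with 20 or more UMIs, and in KO2 in 13.6% and 82.1%. In the WT mice *Esm1* had 0 and 1 UMIs over the 20 and 15 cells of the cluster. All cells compared here are cells of 2 mice, and no test was run.

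**Figure D4:**
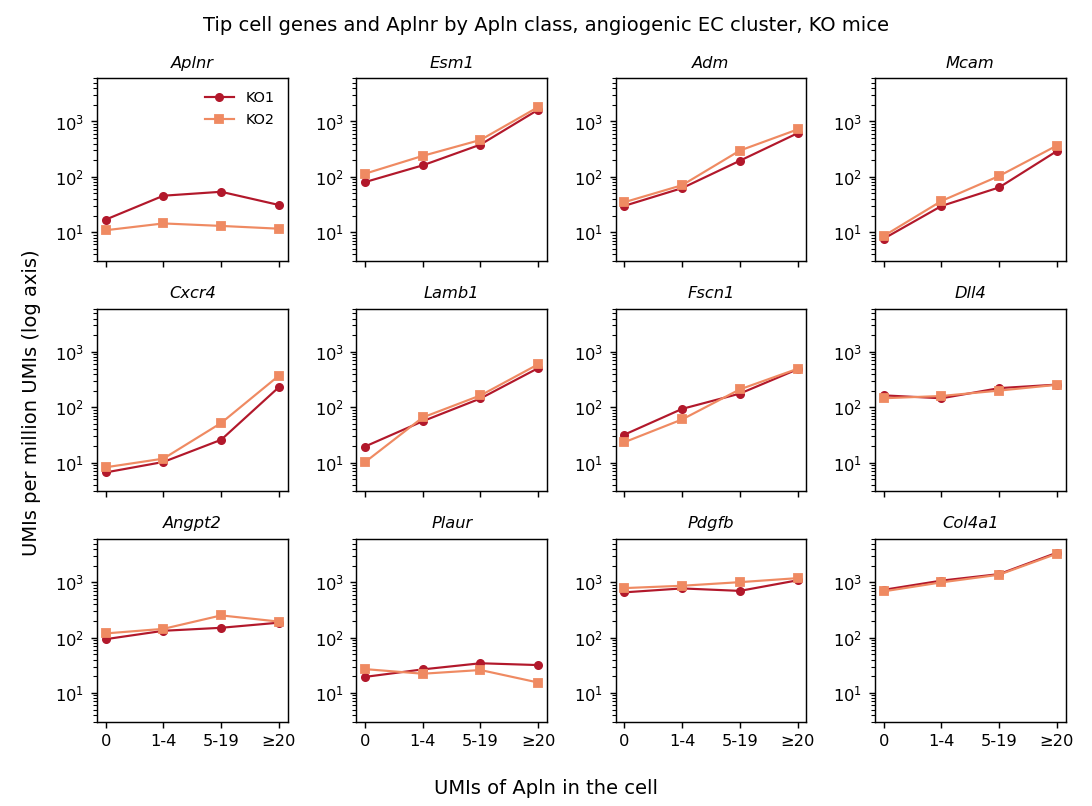
Levels (UMIs per 1000000 UMIs, log axis) of *Aplnr* and 11 of the 14 tip cell genes in cells of the angiogenic cluster of KO1 and KO2, by the number of *Apln* UMIs in the cell. *Esm1* climbed from 80.3 to 1634 CPM in KO1 and from 114 to 1826 in KO2 between the outer classes, whereas *Dll4* went from 164 to 256 and from 145 to 254.

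Among mural cells, the cells that wrap the vessel, *Apln* was high in the pericyte cluster of KO mice, in cells that also held endothelial transcripts. The cluster was at 3.38 and 1.04 CPM in WT1 and WT2 against 602 and 273 in KO1 and KO2, and both KO mice were far above both WT mice. The log2 difference was 7.75 (SE 0.571, adjusted p = 2.42e-05, edgeR), where 4.55% of genes were called. Without each mouse in turn it ran from 6.93 to 8.63 with adjusted p-values up to 0.00209. *Aplnr* was at 3.38, 4.16, 12.5 and 8.61 CPM there, and its log2 difference of 1.47 did not pass the test (SE 0.546, adjusted p = 0.172).

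All but 4 of the 2829 *Apln* UMIs in the KO pericyte cluster lay in cells with 2 or more UMIs over the 7 endothelial markers (2350 of 2353 in KO1 and 475 of 476 in KO2). Pericyte cluster cells under that limit held 0, 0, 3 and 1 *Apln* UMIs in WT1, WT2, KO1 and KO2, over 34, 78, 43 and 68 cells, and no *Aplnr* UMI in any mouse. Cells with 2 or more endothelial marker UMIs made up 53.4% and 46.2% of the cluster in WT1 and WT2 against 74.9% and 67.5% in KO1 and KO2. In KO1 the 48 cells with *Apln* held 8072 CPM over the endothelial markers and 8807 over the 8 pericyte markers, at a median depth of 36683 UMIs. The 123 cells without it held 6784 and 17110 CPM at 7370 UMIs. Per cell, the median was 329.5 endothelial marker UMIs with *Apln* against 4 without it in KO1, and 118 against 4.5 in KO2. Endothelial and pericyte markers thus stood together in the cells that carried *Apln*. With the cells of 2 or more endothelial marker UMIs left out, a choice made after seeing the data, neither gene passed the filter on low counts.

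**Figure D5:**
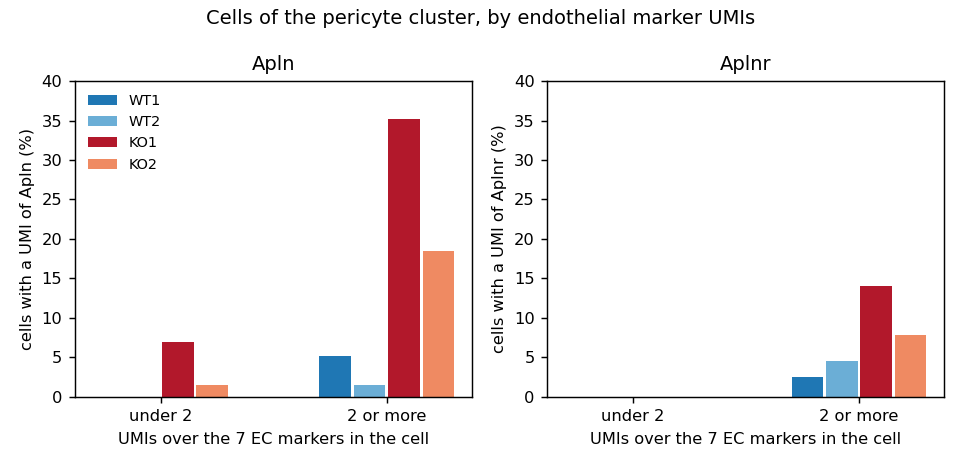
Share of pericyte cluster cells (%) with a UMI of *Apln* (left) or *Aplnr* (right), for cells with under 2 and with 2 or more UMIs over 7 endothelial markers, with 1 bar per mouse. Under the limit, *Apln* was found in 0%, 0%, 6.98% and 1.47% of cells of WT1, WT2, KO1 and KO2, against 5.13%, 1.49%, 35.2% and 18.4% above it, and *Aplnr* was found in none.

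Smooth muscle cells, the contractile cells of arteries, were at 2.53 and 0 CPM of *Apln* in WT1 and WT2 against 4.15 and 2.69 in KO1 and KO2, and at 4.65, 1.57, 2.08 and 0.671 CPM of *Aplnr*. These sums of 0 to 11 UMIs were too low for the test. *Aplnr* in microglia was at 1.05, 1.34, 2.29 and 3.94 CPM, lower than in smooth muscle cells in both WT mice and higher in both KO mice. One further group carried both genes: in KO2, 176 cells of a cluster led by *Ttr* held 81.3 CPM of *Apln* and 41.8 of *Aplnr*. Of its *Apln*-positive cells 99.1% held 2 or more endothelial marker UMIs, and so did 95.5% of its cells without *Apln*. The part of mixed cells in these values was not tested.

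Few of the other genes of the apelin pathway passed the test. Of 32 listed genes, 29 could be tested in ECs, of which 1 rose and 0 fell (3.45%, against 5.66% of all genes tested), with a median log2 difference of -0.0026 beside -0.019 over all genes tested. The gene that rose was *Gnai1*, which encodes a G protein subunit that the receptor can couple to. It was at 5.15 and 3.19 CPM in WT1 and WT2 against 26.4 and 10.2 in KO1 and KO2 after TMM scaling (log2 difference 2.15, SE 0.425, adjusted p = 0.0279, edgeR). DESeq2 called 3 of the listed genes in ECs, where it called 6.83% of all genes, *Gnai1*, *Klf2* (adjusted p = 0.00015, lower in KO) and *Mef2a* (adjusted p = 0.0164, higher in KO), and the last was named after its value was seen. Outside the angiogenic cluster edgeR called 0 of 29 listed genes (1.75% of all genes), DESeq2 called 0 (3.16% of all genes), and 2 had an unadjusted p under 0.05 by edgeR. There *Gnai1* was at 5.17, 3.17, 4.90 and 3.87 CPM (adjusted p = 0.940).

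*Apela*, the second ligand of the receptor, had no UMI in ECs of any mouse. *Nos3*, the endothelial nitric oxide synthase, was at 216, 230, 196 and 204 CPM in ECs of WT1, WT2, KO1 and KO2 (adjusted p = 0.511). The flow-responsive factor gene *Klf2* was at 2163 and 2581 CPM in WT and 1584 and 1501 in KO, without overlap, yet its log2 difference of -0.62 missed the threshold by edgeR (SE 0.167, adjusted p = 0.0799). *Foxo1* (149, 143, 128 and 139 CPM, adjusted p = 0.548), the fatty acid carrier gene *Fabp4* (1.70, 1.64, 0.530 and 1.50, adjusted p = 0.469) and the gap junction gene *Gja4* (11.9, 9.49, 5.17 and 8.96, adjusted p = 0.256) did not pass either, all by edgeR. In the pericyte cluster 2 of 28 listed genes fell (7.14%, against 4.55% of all genes tested there). One of them, *Agtr1a*, an angiotensin receptor gene related to *Aplnr*, named here after its value was seen, went from 10.5 and 8.39 CPM in WT to 0.256 and 1.15 in KO (log2 difference -3.94, over 17 UMIs in all, adjusted p = 0.0111, edgeR). The endothelial marker content of that cluster differed between the genotypes as given above, and its part in this fall was not tested.

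Over 45 sums per mouse and group of cells, the genes whose log2 level was most like that of *Apln* were *Prnd* (Pearson r = 0.88), *Fgfbp1* (0.77), *Map4k4* (0.76), *Tm9sf3* (0.75) and *Ino80c* (0.74). Those most like *Aplnr* were *Nrp2* (0.84), *Fmnl2* (0.84), *Nceh1* (0.84), *Calcrl* (0.83) and *Pim3* (0.80). *Apln* and *Aplnr* themselves had an r of 0.36. The sums share 4 libraries and depth, so these values only describe the pattern.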

How the data were processed

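The deposited values are raw UMI counts per gene and barcode, which the authors made from 10x Genomics 3′ v3.1 libraries with Cell Ranger 6.1.2 on mm10 (submitters' processing notes) and did not normalize. Both genes, the gene lists and the tests were chosen with earlier results of these data known. Cells with over 500 genes and under 10% mitochondrial UMIs were clustered (Seurat 5.3.0, R 4.3.3, 2000 variable genes, 50 components, resolution 0.2, and 0.4 for ECs) without 199 listed genes, among them both members, their pathway and the angiogenic gene lists. Names rest on markers, so cell numbers may differ from the study's. Doublets were not removed. In alternatives, cells with 2 or more UMIs of pericyte, microglia, B cell or erythrocyte markers were left out, which kept 24.1% of ECs. UMIs were summed per mouse and tested with edgeR 4.0.16 (filterByExpr, TMM, quasi-likelihood, Benjamini-Hochberg over all genes tested, threshold 0.05), and DESeq2 1.42.0 was an alternative. The code was checked on simulated counts. Levels are UMIs per 1000000 UMIs of the summed cells, TMM-scaled for pathway genes only. Intervals cover counting error only. Members were named everywhere; pathway genes when called in ECs or ECs outside the angiogenic cluster, or when on a fixed list of 7. One gene of that list is not reported here. The 5 genes of highest Pearson r were taken among 9061 genes with a mean of at least 10 CPM, over groups of at least 50 cells, on log2(CPM + 1). The reporter row (yfp) had 0 UMIs, and 0 columns of other samples were present. The edgeR p-values rest on the spread between 2 mice per genotype, estimated with information shared over all genes tested. Figures were drawn with matplotlib in Python.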

Additional observations from a re-analysis of the deposited data

Results flagged for a closer look

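*Aplnr* moved in opposite directions in the female and the male mice over all ECs, with 1 mouse of each genotype per sex, so that the difference between the sexes was not tested. The log2 difference of KO from WT was 0.61 between the female mice and -0.40 between the male mice. Outside the angiogenic cluster it was 0.28 and -0.34. The share of ECs with an *Aplnr* UMI differed by 4.93 percentage points between the female and by -2.98 points between the male mice.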

How the results depend on the processing

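The call of *Apln* in all ECs and outside the angiogenic cluster held under every alternative that kept all 4 mice. In capillary ECs its difference was 1.80 by DESeq2 and 2.14 without cells that held other types' markers, both past the threshold no longer. The latter alternative kept 24.1% of all ECs. The difference was 3.48 with all variable genes in the clustering, 2.39 at resolution 0.3 and 2.96 with zones set per cell. In venous ECs it was 1.82 with all variable genes and, in a choice made after seeing the data, 1.73 without the top cell of each mouse. The venous minus capillary effect on *Apln* was 2.85 and past the threshold with no filter on low counts, and 0.39 with zones set per cell (adjusted p = 0.959 by edgeR). The difference in *Apln* shares was 4.89 points without the angiogenic cluster. Outside the angiogenic cluster *Aplnr* turned to 0.17 without cells that held other types' markers, 0.0018 with all variable genes and 0.0096 at resolution 0.3. In arterial ECs it turned to 0.39 with zones set per cell. The cause of these changes was not tested.

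Without each mouse in turn, *Apln* ran from 4.86 to 6.68 in ECs and 1.91 to 3.64 outside the angiogenic cluster. It ran from 0.50 to 1.63 in arterial, 1.56 to 2.14 in capillary and 1.58 to 6.30 in venous ECs, and -0.25 to 4.75 for venous minus capillary. In the pericyte cluster, where nearly all *Apln* lay in cells with endothelial markers, it ran from 6.93 to 8.63. *Aplnr* ran from -0.25 to 0.47 in ECs, -0.21 to 0.16 outside the angiogenic cluster, -0.36 to -0.18 in arterial, -0.051 to 0.40 in capillary and 0.15 to 0.43 in venous ECs. It ran from -0.26 to 0.51 for venous minus capillary, and 1.37 to 1.66 in the pericyte cluster. The arterial range lacks the run without WT2 and the pericyte range the run without KO1, where *Aplnr* fell below the filter on low counts. Share differences ran from 6.16 to 17.4 points for *Apln* and from -2.47 to 4.42 for *Aplnr*.

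Replicate numbers were not shown to pair the mice (r of deviations 0.097, and -0.13 without sex-linked genes). With the replicate block, 938 genes were called in ECs against 765 without it, 551 against 233 outside the cluster, 184 against 70 in arterial, 303 against 155 in capillary and 62 against 86 in venous ECs, and *Apln* differed by 5.73, 2.77, 0.98, 1.77 and 4.28. A crossed pairing, chosen after seeing the data, gave 1321, 466, 269, 191 and 271 calls, and DESeq2 975, 419, 53, 62 and 119. DESeq2 gave no adjusted p for *Apln* or *Aplnr* in venous ECs. Stricter filters or fewer cells left *Apln* or *Aplnr* untested in some arterial, venous and pericyte alternatives.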
